A study of Mus musculus with 3 samples.

Results

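The 10 genes described here form much of the machinery by which mononucleated myoblasts fuse into multinucleated myotubes, and they were taken by name. They are the fusogens myomaker and myomixer, the surface receptors Cdon, Boc and Neo1, the surface proteins Jam3 and Adam12, the exchange factors Dock1 and Trio, and the membrane protein myoferlin (Myof). All 10 were found among the 23238 gene symbols measured, with myomaker listed under its older symbol Tmem8c and myomixer under Gm7325, here called Mymk and Mymx. All 10 also passed the filter on low values, which asked for a CPM (a count scaled to the depth of its library) of at least 1 somewhere among the 3 libraries and which 13169 genes passed. The cells were c2c12, an immortalized line of mouse myoblasts, cultured in serum-rich growth medium and then kept for 2 days in a low-serum myogenic induction medium. They differentiated on a tissue culture plate (TCP), on a hydrogel of 15% w/v methacrylated gelatin (GelMA), or on a hydrogel of 15% w/v GelMA mixed with 1% w/v poly(sodium 4-styrenesulfonate), a sulfonated polymer used as a mimic of heparin (GelMA-PSS). The study asked how such heparin-like cues in the matrix bear on myogenic differentiation, with TCP and GelMA as the controls. No sample carried a genetic change, and each substrate is represented by cells of 1 line and 1 library.

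No p-value can be given with 1 library per substrate, and the difference between GelMA and TCP, both control substrates, is given as a yardstick. Total counts were 119799095 on TCP, 87071144 on GelMA and 192171443 on GelMA-PSS, and the lowest count of a fusion gene was 383, far above the 3 counts set as the floor of detection. Intervals on a CPM are 95% Wilson intervals, and those on a ratio are 95% exact Clopper-Pearson intervals, both of which cover counting error only. Because more genes had a count of 2 than of 1, both reads of a pair may have been counted, which would make these intervals too narrow. The labelled cell type was checked against marker genes. All 8 myogenic markers passed the filter, with summed CPM of 17717, 12621 and 9858 on TCP, GelMA and GelMA-PSS. The embryonic myosin Myh3 gave 10182, 6355 and 3037 CPM of these sums, and the markers did not fall together. Of the 8, 2 were lower and 3 higher on GelMA-PSS than on both controls, where 39.3% and 45.3% of all genes were. The 4 adipocyte markers summed to between 0.0221 and 0.107 CPM and 0 of them passed the filter, with Lep at 0 in every library. The 4 endothelial markers summed to between 0.682 and 0.905 CPM, and again 0 passed. Of the 4 blood and macrophage markers, 1 passed (Cd68), their sum was between 1.62 and 1.86 CPM, and Ptprc was at 0 on TCP and GelMA. RNA came from whole cultures, so that fewer cells at a stage of differentiation and less RNA per cell cannot be told apart.

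Myoblast fusion proceeds in steps. Cells that have left the cell cycle recognise and adhere to each other through surface receptors, Rac-dependent actin remodelling presses the membranes together, and the fusogens then merge them. Mymk is a multi-pass membrane protein needed for the mixing of the outer membrane leaflets, and Mymx is a small membrane protein that completes the fusion pore. Both are made transiently in differentiating muscle cells under the control of the MyoD family of transcription factors. Cdon and Boc are related immunoglobulin-superfamily receptors that promote myogenic differentiation and also act as Hedgehog co-receptors, and Neo1 (neogenin) is a receptor for netrins and repulsive guidance molecules.

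Of the 10 genes, 2 were lower in GelMA-PSS by 2-fold or more, and they were the same ones against each control, namely Adam12 and Trio. Against GelMA, 2.33% of all genes were lower by that much, and against TCP 3.13% were. Against both controls together 1.16% of all genes were lower 2-fold. None of the 10 genes was higher 2-fold on GelMA-PSS, where 1.77% of all genes were so against GelMA, 3.72% against TCP and 1.37% against both. In GelMA against TCP 0 of the 10 passed 2-fold in either direction, against 1.00% of all genes.

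Without regard to size, 7 of the 10 fusion genes were lower on GelMA-PSS than on both controls (Mymk, Cdon, Neo1, Jam3, Adam12, Trio and Myof), where 39.3% of all genes were. Mymx alone of the 10 was higher than on both, as were 45.3% of all genes. The median log2 ratio of the 10 genes was -0.38 for GelMA-PSS against GelMA and -0.48 against TCP, where the medians of all genes were 0.03 and 0.04. Between GelMA and TCP the median of the 10 genes was 0.00 and that of all genes -0.01. The comparisons with GelMA and with TCP share the GelMA-PSS library, so they do not count as separate evidence. Log2 ratios were taken of CPM + 1, a pseudocount that understates differences of genes with low counts such as Adam12 and Boc.

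**Figure D1:**
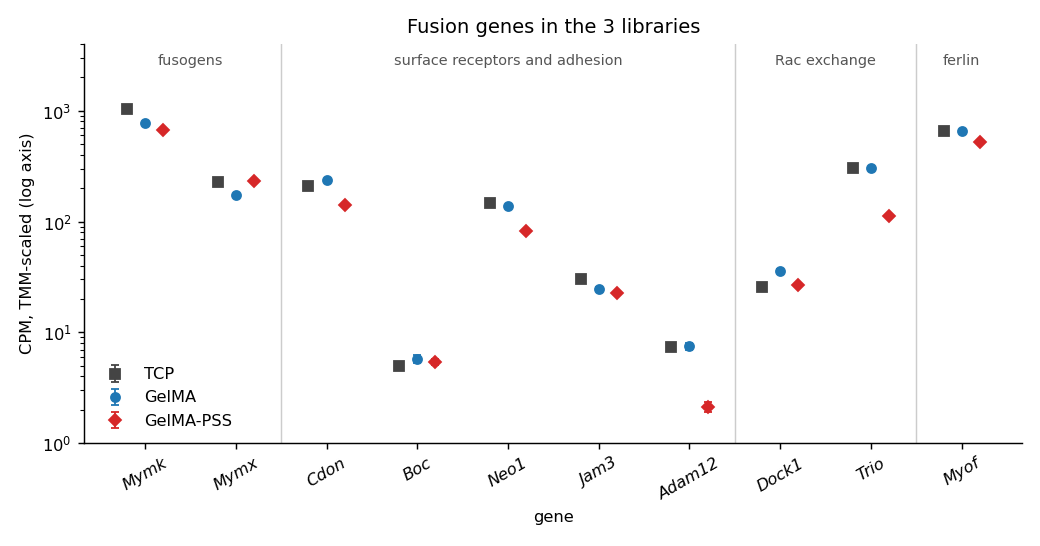
CPM of the 10 fusion genes on TCP, GelMA and GelMA-PSS, on a log axis, with 1 library per substrate and bars for the 95% Wilson interval of counting error. Adam12 (2.11 CPM on GelMA-PSS) and Trio (113 CPM) lie well below both of their controls, whereas Mymx (234 CPM) and Dock1 (26.6 CPM) lie close to TCP but not to GelMA, and Boc lies close to both.

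The fusogens did not show the same pattern. Mymk (Tmem8c, chromosome 2 from 27061636 to 27072179 on the minus strand of GRCm38, 5 exons) was measured at 1029.8 CPM on TCP, 773 on GelMA and 670 on GelMA-PSS, with counting intervals of 1024 to 1036, 768 to 779 and 666 to 674. It was the most abundant of the 10 genes in each library, and its CPM was lower on each hydrogel than on TCP. The ratio of GelMA-PSS to GelMA was 0.866 (0.858 to 0.874), a log2 ratio of -0.21, and that of GelMA-PSS to TCP was 0.650 (0.645 to 0.656), a log2 ratio of -0.62. The log2 ratio of GelMA to TCP was -0.41, further from 0 than that of GelMA-PSS to GelMA with TMM factors. With TPM it was -0.36, nearer to 0 than the -0.68 of GelMA-PSS to GelMA, but TPM also shifted the median of all genes. Less that shift, GelMA to TCP was again the further from 0, at -0.41, with GelMA-PSS to GelMA at -0.27. After a correction for transcript length and GC content it was the nearer to 0 (-0.35 and -0.54). Mymx (Gm7325, chromosome 17 from 45600971 to 45602102, minus strand, 2 exons) was measured at 226 CPM on TCP, 175 on GelMA and 234 on GelMA-PSS. Here GelMA was the low library, and the GelMA-PSS library lay close to TCP. The ratio of GelMA-PSS to GelMA was 1.34 (1.31 to 1.36) and that to TCP 1.04 (1.02 to 1.05), and GelMA stood to TCP at 0.775 (0.760 to 0.791). The log2 ratios of Mymx were 0.42, 0.05 and -0.37, and the direction against each control depends on the scaling, as described with transcript length.

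Within a library the scaling cancels, although a dependence on transcript length does not, and the fusogens were also set against each other by their counts. TCP held 4.56 Mymk counts for each Mymx count (4.50 to 4.62), GelMA 4.42 (4.34 to 4.49) and GelMA-PSS 2.86 (2.83 to 2.89). The control libraries lay close together in this ratio and the GelMA-PSS library lay apart from both. Per transcript base the ratio was 2.03, 1.97 and 1.27 in the same order, with 1382 bases for Mymk and 616 for Mymx, for which the annotation holds coding transcripts between 437 and 804 bases. Myogenin (Myog), a transcription factor of differentiating myoblasts, was at 1099.9 CPM on TCP, 895 on GelMA and 1037 on GelMA-PSS. Against Myog, Mymk counts stood at 0.936, 0.864 and 0.646, and Mymx counts at 0.205, 0.196 and 0.226. The ratio of Mymk to Myog was thus lowest on GelMA-PSS. That of Mymx to Myog was highest there by counts, but the transcripts differ in length (616 and 1495 bases), and after the correction Mymx was not above Myog, with log2 ratios of -0.11 to GelMA and -0.42 to TCP against -0.09 and -0.32 for Myog. Mymk stayed below both, at -0.54 and -0.88.

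**Figure D2:**
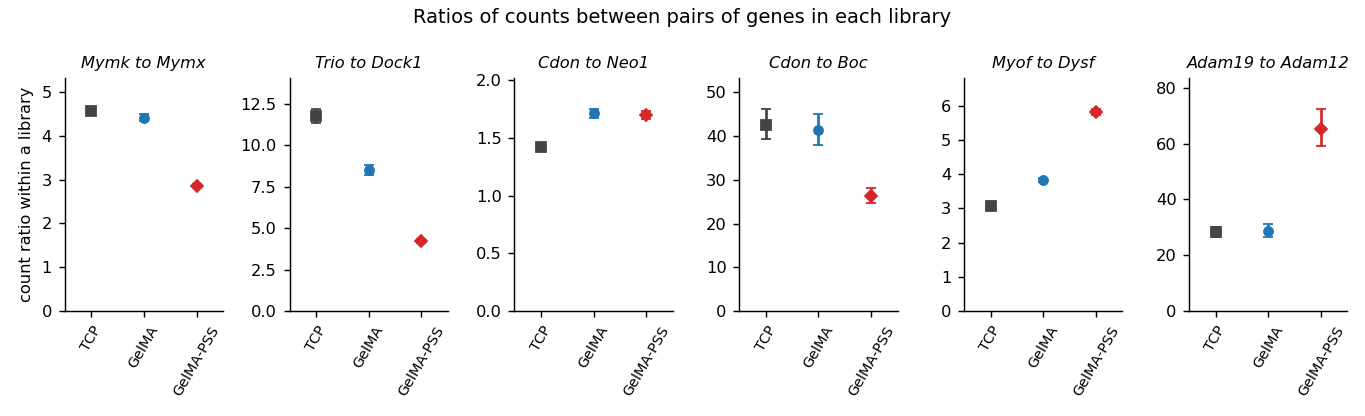
Ratios of counts between pairs of genes within each library, each panel with its own axis from 0, with 95% exact intervals of counting error. The ratio of Mymk to Mymx was 4.56 and 4.42 on the controls and 2.86 on GelMA-PSS, and that of Adam19 to Adam12 was 28.3, 28.7 and 65.4.

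The receptors Cdon and Neo1 were lower on GelMA-PSS than on both controls, and Boc was not. Cdon (chromosome 9 from 35421128 to 35507652, plus strand, 20 exons) was measured at 210.2 CPM on TCP, 236 on GelMA and 141 on GelMA-PSS. Its ratio of GelMA-PSS to GelMA was 0.596 (0.585 to 0.607) and to TCP 0.670 (0.659 to 0.682). Boc (chromosome 16 from 44485049 to 44558897, minus strand, 19 exons) was measured at 4.94 CPM on TCP, 5.72 on GelMA and 5.36 on GelMA-PSS, from 601, 520 and 971 counts. A difference of Boc between GelMA-PSS and its controls was not detectable at this depth, as both counting intervals hold 1, at 0.841 to 1.04 against GelMA and 0.980 to 1.204 against TCP. Cdon was thus the dominant of these related co-receptors in every library, with 42.6 counts for each Boc count on TCP, 41.3 on GelMA and 26.3 on GelMA-PSS. Per transcript base these ratios were 25.3, 24.5 and 15.6.

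Neo1 (chromosome 9 from 58874687 to 59036441, minus strand, 29 exons) was measured at 148 CPM on TCP, 138 on GelMA and 82.7 on GelMA-PSS. Its ratio of GelMA-PSS to GelMA was 0.6001 (0.586 to 0.615), close to that of Cdon, and its ratio to TCP was 0.560 (0.548 to 0.573). Cdon and Neo1, which have transcripts of like length (7503 and 7379 bases), kept a count ratio of 1.71 on GelMA and 1.70 on GelMA-PSS, with 1.42 on TCP.

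Of the other surface proteins, the adhesion molecule Jam3 was slightly lower on GelMA-PSS and the metalloprotease-disintegrin Adam12 was much lower. Jam3 (chromosome 9 from 27097384 to 27155421, minus strand, 9 exons) was measured at 30.03 CPM on TCP, 24.8 on GelMA and 22.6 on GelMA-PSS. Both hydrogels lay below TCP, and the ratio of GelMA-PSS to GelMA was 0.911 (0.865 to 0.960) and to TCP 0.754 (0.721 to 0.789). Up to 773 exonic bases of Jam3 overlap the antisense gene Gm48796, whose reads cannot be told apart from those of Jam3 unless strand was used in counting, which is not given in the sources used here. The related Jam2 gave 5.66, 5.72 and 6.51 counts for each Jam3 count.

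Adam12 (chromosome 7 from 133883199 to 134232146, minus strand, 23 exons) was measured at 7.32 CPM on TCP (6.85 to 7.81), 7.48 on GelMA (6.94 to 8.07) and 2.11 on GelMA-PSS (1.91 to 2.34). The control libraries did not differ beyond counting error, and the GelMA-PSS library lay below both with a wide gap. From 891, 680 and 383 counts, the ratio of GelMA-PSS to GelMA was 0.283 (0.249 to 0.321) and to TCP 0.289 (0.256 to 0.326). On the log2 scale with a pseudocount these were -1.45 and -1.42, the lowest value of the 10 genes in each comparison. Adam19, a related protease of muscle with a transcript of 6383 bases against 7675 for Adam12, was at 207 CPM on TCP, 215 on GelMA and 138 on GelMA-PSS. It exceeded Adam12 by 28.3 counts to 1 on TCP, 28.7 on GelMA and 65.4 on GelMA-PSS, so within this pair of long transcripts Adam12 was further below its controls than Adam19.

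The exchange factors that activate Rac at the fusion site differed from each other. Trio, a large multidomain protein (chromosome 15 from 27730651 to 28025848, minus strand, 57 exons), was measured at 303 CPM on TCP, 305 on GelMA and 113 on GelMA-PSS. The controls were nearly equal, with a ratio of 1.01 (0.993 to 1.02), and GelMA-PSS stood at 0.369 of GelMA (0.363 to 0.376) and 0.373 of TCP (0.366 to 0.379). Dock1, which acts with Elmo proteins on Rac (chromosome 7 from 134670654 to 135173639, plus strand, 52 exons), was measured at 25.7 CPM on TCP, 36.0 on GelMA and 26.6 on GelMA-PSS. For Dock1 the GelMA library was the high one, at 1.40 times TCP (1.33 to 1.47), and GelMA-PSS did not differ from TCP beyond counting error, with a ratio of 1.03 (0.989 to 1.08). The ratio of Trio to Dock1 counts was 11.8 on TCP, 8.49 on GelMA and 4.23 on GelMA-PSS. Trio was the more abundant of these exchange factors in every library, also per transcript base, at 6.96, 5.03 and 2.51.

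The 250 bases upstream of the annotated start of transcription were read for the fusion genes held in the RefSeq promoter table of GRCm38.p6, which matched 5 of them (Cdon, Neo1, Dock1, Trio and Myof) and had no entry for Mymk, Mymx, Boc, Jam3 and Adam12. Trio, Neo1 and Myof are shown because they were lower on GelMA-PSS than on both controls and because their starts coincide with the gene ends given here. Capitals mark GC boxes, GGGCGG or its reverse complement CCGCCC, which Sp-family factors bind, and the letters run 5′ to 3′ along the minus strand from chr15:28025849-28026098 for Trio, chr9:59036442-59036691 for Neo1 and chr19:38043578-38043827 for Myof.
Trio: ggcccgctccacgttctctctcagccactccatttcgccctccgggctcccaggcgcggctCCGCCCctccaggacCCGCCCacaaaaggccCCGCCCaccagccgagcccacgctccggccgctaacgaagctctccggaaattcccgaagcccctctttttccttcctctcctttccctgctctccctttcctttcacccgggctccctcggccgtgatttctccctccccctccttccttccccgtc
Neo1: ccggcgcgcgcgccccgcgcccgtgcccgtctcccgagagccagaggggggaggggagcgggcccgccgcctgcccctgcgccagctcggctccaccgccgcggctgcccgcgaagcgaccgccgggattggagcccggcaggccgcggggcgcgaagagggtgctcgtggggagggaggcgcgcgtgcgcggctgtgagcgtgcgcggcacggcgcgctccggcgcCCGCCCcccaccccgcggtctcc
Myof: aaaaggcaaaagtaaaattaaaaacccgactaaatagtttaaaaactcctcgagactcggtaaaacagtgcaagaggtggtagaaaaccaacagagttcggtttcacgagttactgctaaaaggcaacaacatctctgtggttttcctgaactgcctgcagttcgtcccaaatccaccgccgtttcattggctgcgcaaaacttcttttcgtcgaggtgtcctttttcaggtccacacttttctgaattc
The stretch of Trio is 66.8% G or C and holds 3 GC boxes, whose first bases lie 189, 174 and 158 bases before the start. That of Neo1 is 83.2% G or C and holds 1, at 23 bases before the start. That of Myof is 42.8% G or C and holds 0, so the lower genes shown do not share this feature. Of the matched genes not shown, Dock1, which was not lower than both controls, holds 3, and Cdon, which was, holds 0. The Cdon stretch, chr9:35451826-35452075, lies inside the gene span given above, before an internal start. Its letters therefore do not describe the sequence upstream of that span. Of 32851 stretches of this length in the table, 32.7% hold a GC box. The letters CANNTG of an E-box, the kind of site bound by MyoD and Myog, do not occur in any of the 3 stretches shown and occur in 66.2% of all. That of Dock1 holds 1 and that of Cdon 0. The form CAGCTG, counted among these E-boxes, occurs in 13.0% of all and the MEF2 site in 2.92%, and neither was found in any of the 5 matched stretches. Both strands were searched, and a match or its absence describes these letters only.

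Myof, a ferlin with calcium-binding C2 domains that takes part in membrane fusion (chromosome 19 from 37899036 to 38043577, minus strand, 54 exons), was second in CPM to Mymk on TCP, GelMA and GelMA-PSS, at 661, 655 and 518. The controls were equal within counting error, with a ratio of 0.991 (0.981 to 1.00), and GelMA-PSS stood at 0.791 of GelMA (0.783 to 0.799) and 0.784 of TCP (0.777 to 0.791). Its relative dysferlin (Dysf), a ferlin of membrane repair with a transcript of nearly the same length (6641 bases against 6633), was at 215 CPM on TCP, 171 on GelMA and 89.1 on GelMA-PSS. The ratio of Myof to Dysf counts was 3.07 on TCP (3.03 to 3.12), 3.83 on GelMA (3.76 to 3.89) and 5.82 on GelMA-PSS (5.72 to 5.92). Of these ferlins Dysf was thus further below its controls, by -0.94 in the log2 ratio to GelMA and -1.26 in that to TCP (-0.38 and -0.84 corrected for length and GC content).

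Levels of different genes were compared per transcript length, as TPM, which scales each count to transcript length and library depth. On TCP the order was Mymk (1494 TPM), Mymx (735), Myof (200), Cdon (56.2), Trio (52.8), Neo1 (40.1), Jam3 (31.0), Dock1 (7.58), Boc (2.22) and Adam12 (1.91). The fusogens led by this measure in every library, with Mymk at 1163 TPM on GelMA and 728 on GelMA-PSS, and Mymx at 591 and 571. Adam12, at 0.414 TPM on GelMA-PSS, was the lowest there. Trio was at 55.2 TPM on GelMA and 14.7 on GelMA-PSS, where it came after Cdon (28.2 TPM), Jam3 (17.5 TPM) and Neo1 (16.8 TPM).

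Transcript length moved with the ratios over all genes and over the fusion genes. In GelMA-PSS against GelMA the Spearman correlation of the log2 ratio with transcript length was -0.66 over the genes with a known length and -0.94 over the 10 fusion genes. Against TCP it was -0.50 and -0.66, and for GelMA against TCP 0.21 and 0.56. These are descriptions across genes of the same libraries, not across replicates. The fusion genes are long, with a median transcript of 6720 bases against 2914 for all genes, and 6 of the 10 (Cdon, Neo1, Adam12, Dock1, Trio and Myof) are among the 1306 genes with the longest transcripts, those of 6344 bases or more. Among these long genes the median of the log2 ratios was -0.62 with GelMA and -0.47 with TCP as the control, and 7.66% of them were lower 2-fold than both controls. Of the 6 fusion genes among them, 2 were.

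**Figure D3:**
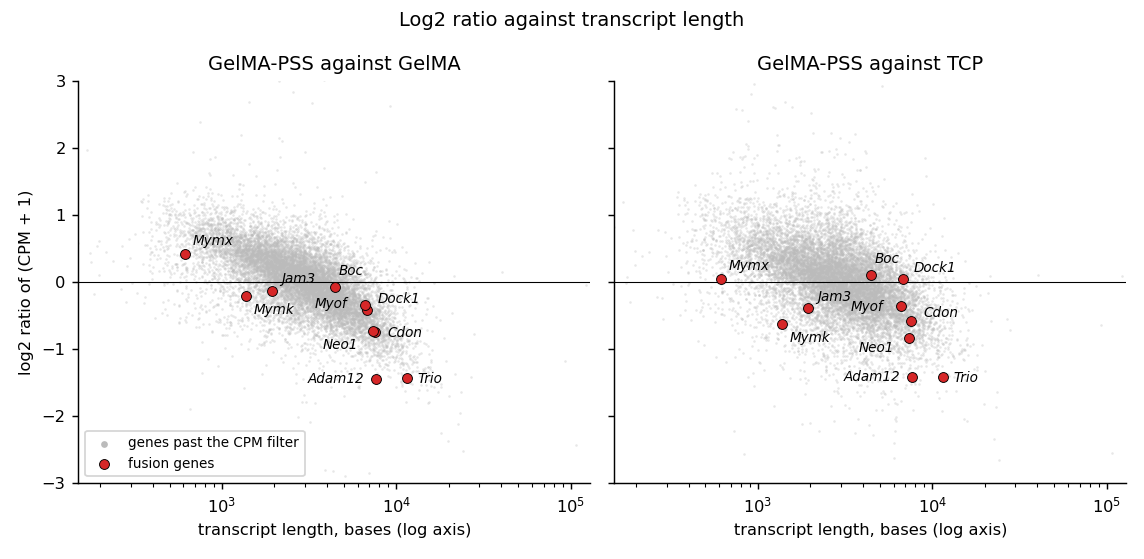
Log2 ratio of (CPM + 1) against transcript length on a log axis, for the genes past the CPM filter (grey) and the 10 fusion genes (red), in GelMA-PSS against GelMA and against TCP. Grey points slope downward with length, and Adam12 and Trio lie low among the long genes, of which 7.66% were lower 2-fold than both controls. Mymk lies below most genes of its own length, and 7 and 12 genes lie outside the drawn range.

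Set against genes of like length, the picture of single members changed. Lengths are those of 1 chosen transcript per gene, on which the TPM and corrected values rest. For Trio (11495 bases) and Adam12 (7675) the annotation also holds coding transcripts as short as 550 and 630 bases. For Cdon (7503) and Neo1 (7379) the shortest are of 408 and 1215 bases. A loess fit of each ratio on transcript length and then on GC content was subtracted, after which 40.7% of all genes were lower than both controls and 0.628% were lower 2-fold. After this correction 7 of the 10 fusion genes were lower than both controls (Mymk, Mymx, Cdon, Neo1, Jam3, Adam12 and Trio), and 0 passed 2-fold against either. The corrected median of the 10 genes was -0.19 against GelMA and -0.42 against TCP. Adam12 remained the lowest, at -0.87 and -0.99. Mymk moved away from 0, to -0.54 and -0.88, and the 1309 genes with transcripts of 1125 to 1605 bases, like its own, had positive medians of 0.40 and 0.33. Trio moved toward 0, to -0.47 and -0.74, as did Cdon (-0.19 and -0.16) and Neo1 (-0.19 and -0.42). Mymx, among the 1306 genes with the shortest transcripts and medians of 0.58 and 0.51, was at -0.11 and -0.42. Jam3 was at -0.41 and -0.60. Boc (0.19 and 0.32) and Dock1 (0.06 and 0.41) were above 0 against both, and Myof was at 0.12 and -0.01.

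The scaling bears on these directions. Scaling by library totals moved the median of all genes by -0.13 in GelMA-PSS against GelMA and by -0.10 against TCP, and TPM moved it by -0.40 and -0.36. Of all genes past 2-fold against GelMA, 307 were lower and 233 higher with TMM factors, 506 and 120 with totals, and 1040 and 42 with TPM. The corresponding numbers against TCP were 412 and 490, 576 and 338, and 1052 and 149. Mymk, Cdon, Neo1, Jam3, Adam12 and Trio were lower on GelMA-PSS than on each control under all 8 alternatives to the processing. Of these alternatives, the pseudocounts and the filter cannot change the sign of a ratio, and the handling of shared symbols barely moved any. Counts out of 8 therefore rest in good part on settings that could hardly differ. Mymx was higher than on GelMA under 6 of the 8 and at -0.05 with TPM, which is 0.35 once the shift of all genes is taken off. Against TCP, Mymx was higher under 5 of the 8, of which the median-of-ratios size factors (0.05) are a change of scaling. It was at -0.06 with totals and -0.36 with TPM, or 0.04 and -0.01 less the shift, and at -0.42 with the loess correction. Dock1 was likewise higher than on TCP under 6 of the 8, at -0.06 with totals and -0.32 with TPM, or 0.04 in both less the shift. Transcript length and substrate cannot be told apart in these differences, since 1 library carries both.

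**Figure D4:**
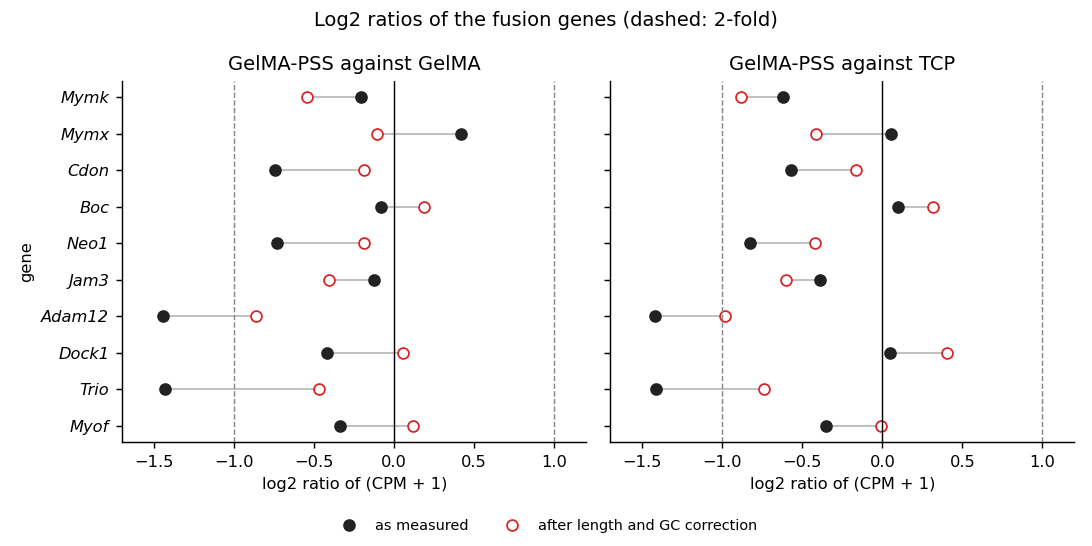
Log2 ratios of the 10 fusion genes in GelMA-PSS against GelMA and against TCP, as measured (filled) and after the correction for transcript length and GC content (open), with dashed lines at 2-fold. Adam12 and Trio are beyond the line as measured and inside it after correction, and Mymk lies further from 0 after correction, at -0.54 and -0.88.

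Other genes of the fusion pathway were taken from lists by function. Of 16 adhesion and surface genes, all passed the filter, 9 were lower and 5 higher on GelMA-PSS than on both controls, and 0 passed 2-fold against both on the scale of CPM + 1. For these lists, too, 39.3% of all genes lower and 45.3% higher than both is the background, and medians are given as measured and corrected for transcript length and GC content. Here they were -0.07 with GelMA and -0.19 with TCP as the control, and -0.02 and -0.10 corrected. The adhesion molecule Ncam1 was at 959.8 CPM on TCP, 724 on GelMA and 491 on GelMA-PSS, with log2 ratios of -0.56 and -0.97 (-0.56 and -0.97 corrected). The tetraspanin Cd9, which restrains fusion in regenerating muscle, was higher, at 326, 346 and 619 CPM, with log2 ratios of 0.83 and 0.92 (0.32 and 0.51 corrected). The integrin Itga9 was near the filter, at 1.44, 0.572 and 0.177 CPM from 175, 52 and 32 counts. Its CPM ratio was 0.309 to GelMA (0.192 to 0.489) and 0.123 to TCP, past 2-fold against both, whereas the pseudocount kept its log2 ratios at -0.42 and -1.05 (0.11 and -0.66 corrected).

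Of 19 Rac and actin genes, all passed the filter, 10 were lower and 6 higher than both controls, and 0 passed 2-fold against both, with medians of -0.14 and -0.06 (-0.02 and 0.08 corrected). Iqsec1, an exchange factor for Arf6, was at 71.5, 79.8 and 46.6 CPM on TCP, GelMA and GelMA-PSS, with log2 ratios of -0.76 and -0.61, and the scaffold Tanc1 was at -0.75 and -0.54. Both have long transcripts, of 6490 and 7873 bases, and their corrected log2 ratios were -0.24 and -0.21 for Iqsec1 and -0.13 and -0.09 for Tanc1. Brk1, a small subunit of the actin-nucleating WAVE complex, was higher on GelMA-PSS, at 105, 93.2 and 157 CPM, with corrected log2 ratios of 0.24 and 0.17.

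Of 11 genes of membrane remodelling and phosphatidylserine recognition, 9 passed the filter, 4 of them were lower and 3 higher than both controls, and 0 passed 2-fold against both. Medians were 0.02 and -0.16 (0.11 and 0.09 corrected). Besides Dysf, the annexins stood apart, with Anxa1 at 526, 564 and 1025 CPM (log2 ratios 0.86 and 0.96, corrected 0.45 and 0.64) and Anxa5 at 255, 332 and 514 CPM (0.63 and 1.01, corrected 0.34 and 0.79). Both annexins, which bind membrane phospholipids in the presence of calcium, were thus higher on GelMA-PSS.

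Of 19 ligands and signalling partners of Cdon, Boc and Neo1, 12 passed the filter, 8 of them were lower and 1 higher than both controls, with medians of -0.38 and -0.28 and 0 past 2-fold. The corrected medians were -0.14 and -0.02, closer to 0, for a median transcript of 4738.5 bases. The Hedgehog ligands Shh, Ihh and Dhh and the transcription factors Gli1 and Gli2 were below the filter, as was Ntn3. Rgmb, a ligand of Neo1, was at 41.0, 34.8 and 23.0 CPM on TCP, GelMA and GelMA-PSS (log2 ratios -0.58 and -0.81, corrected -0.25 and -0.56). The transcription factor Gli3 was at 22.7, 29.2 and 15.9 CPM (-0.84 and -0.49, corrected -0.22 and -0.03), and the netrin receptor Unc5b at 110, 137 and 84.5 CPM (-0.69 and -0.38, corrected -0.19 and -0.005).

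Of 13 transcription factors upstream of fusion, 12 passed the filter, 5 were lower and 5 higher than both controls, with medians of 0.06 and -0.10 (0.04 and -0.05 corrected). Mef2c, a MADS-box factor that cooperates with MyoD, was the 1 gene of these 6 lists lower 2-fold than both controls on the scale of CPM + 1, and together with Itga9 1 of 2 by CPM alone, at 289 CPM on TCP, 181 on GelMA and 81.0 on GelMA-PSS. Its log2 ratios were -1.15 and -1.82, and -0.85 and -1.61 after the correction for length, at 6277 bases. Mef2d was at 147, 133 and 75.4 CPM (corrected log2 ratios -0.96 and -1.05), whereas Myf5, the MyoD relative of undifferentiated myoblasts, was higher on GelMA-PSS, at 13.9, 19.5 and 36.5 CPM (corrected log2 ratios 0.53 and 1.07). Myod1 was at 94.3, 105 and 119 CPM.

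Of 19 relatives of the fusion genes, 18 were listed and 12 passed the filter, 8 of which were lower and 1 higher than both controls, with medians of -0.49 and -0.31 and 0 past 2-fold against both. The corrected medians were -0.12 and -0.17, closer to 0, for a median transcript of 5708.5 bases. Besides Dysf, the largest differences against the nearer control were those of Tmem8b, a relative of Mymk (10.9, 11.04 and 6.03 CPM, log2 ratios -0.78 and -0.76, corrected -0.43 and -0.49), and Dock4, a relative of Dock1 (5.03, 7.70 and 2.61 CPM, -1.27 and -0.74, corrected -0.65 and -0.30). Jam2, Dock5, Dysf and Fer1l5 belong to more than 1 of these lists.

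**Figure D5:**
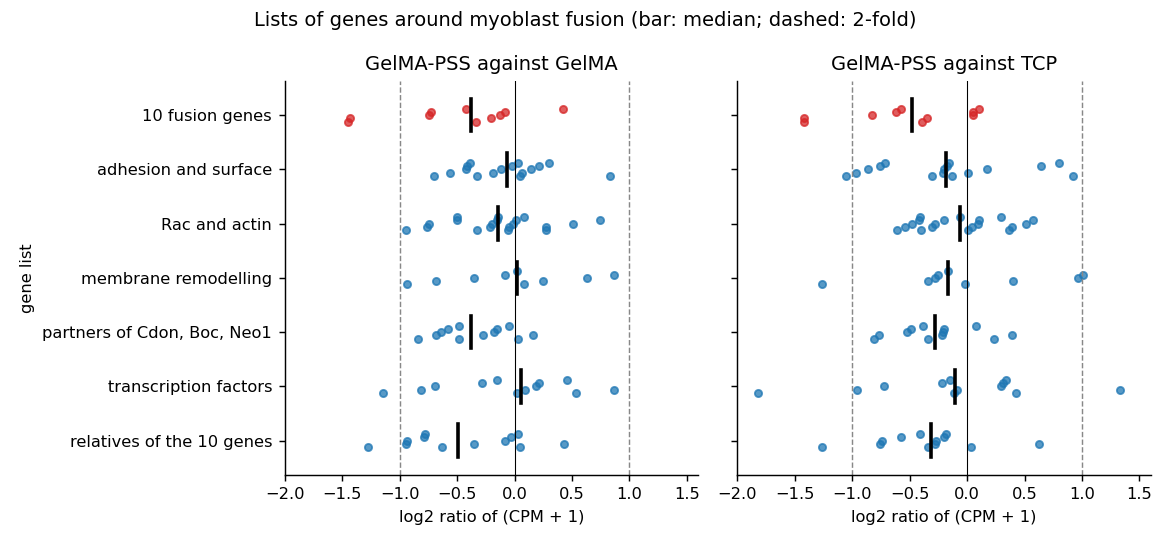
Log2 ratios of each gene past the CPM filter in the wider lists and of the 10 fusion genes, in GelMA-PSS against GelMA and against TCP, with the median of each list as a bar. Most genes lie within 2-fold of both controls, and Mef2c, at -1.15 and -1.82, is the gene outside the 10 fusion genes that passes 2-fold against both on this scale.

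The genes whose pattern over the 3 libraries was most like that of each fusogen were found by the Euclidean distance in the log2 ratios of GelMA and GelMA-PSS to TCP, among the 9666 genes that reached a CPM of 10 on any substrate. For Mymk they were Tmem150a (distance 0.0079), Morc4 (0.0144), Prkaca (0.0223), Insig1 (0.0228) and Tob1 (0.0267). For Mymx they were Pdrg1 (0.0117), Vimp (0.0215), Tsc22d3 (0.0221), Vps45 (0.0247) and Cuta (0.0265). Tmem150a, for example, was at 46.7, 34.9 and 29.9 CPM on TCP, GelMA and GelMA-PSS, and Pdrg1 at 52.0, 40.5 and 53.9 CPM. With 3 libraries such likeness describes these values and no more.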

How the data were processed

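Total RNA of c2c12 cells on 3 substrates was sequenced, 1 library each. The deposited files hold raw counts, 1 per gene symbol and not normalized. The submitters' processing notes name TopHat, edgeR and the builds hg19 and mm10, without roles. The counting tool, its strand setting and the annotation are not given in the sources used here. The labels and the methods name different library kits.

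Of 23282 lines, those sharing a symbol (35 symbols) were summed. CPM used TMM factors of 1.02, 1.04 and 0.943 for TCP, GelMA and GelMA-PSS (edgeR 4.0.16, R 4.3.3). At the floor of 3 counts, CPM was 0.0246, 0.0330 and 0.0166. Ratios were taken on log2(CPM + 1), and 2-fold, the threshold of the methods, was called without a p-value. The methods applied it to FPKM, which scales fragments to transcript length and library depth, along with a p-value cutoff. The results section of the study names 1.5-fold instead. Transcript lengths and positions came from GENCODE vM21 (GRCm38), 1 transcript per gene, matching 22205 symbols directly and 668 by older symbols, with 365 unmatched. The loess correction (span 0.3, statsmodels 0.14.6) covered 13060 genes. Python 3.11.15, numpy 2.4.6, pandas 2.3.3 and scipy 1.17.1 were used, and scripts were tested on simulated data.

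The text names all 10 fusion genes. Of each other list it names genes past 2-fold against both controls and at most the 3 with the largest change against the nearer control, and for each fusogen the 5 nearest genes. Myog, Myod1, Jam2, Adam19, single cell type markers and the genes under the filter were named outside this rule, after their values were seen. The members and lists were chosen with earlier results of these data known. Alternatives covered scaling (DESeq2 1.42.0 size factors, totals, TPM), pseudocount, filter, threshold, shared symbols and the loess correction. The result of 1 further marker list is not reported here.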

Additional observations from a re-analysis of the deposited data

How the results depend on the processing

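The number of fusion genes past 2-fold was 2 (Adam12 and Trio) in GelMA-PSS against GelMA, against TCP and against both, and stayed at 2 with median-of-ratios size factors, library totals, a pseudocount of 0.1, no filter on low counts and the largest line of a shared symbol. With TPM it was 4 against GelMA (with Cdon and Neo1), where 1040 of 12731 genes were lower 2-fold. It was also 4 against TCP (with Mymk and Neo1), where 1052 were. Less the shift of all genes under TPM, Cdon and Neo1 were at -0.78 and -0.76 against GelMA. Mymk and Neo1 were then at -0.68 and -0.85 against TCP, and Adam12 at -0.69 in each, all inside 2-fold. Trio stayed past it, at -1.43 and -1.42. With a threshold of 1.5-fold the number was also 4 and 4, for the same added genes. With TPM and with 1.5-fold it was 3 against both. The shares of all genes past 1.5-fold, and past 2-fold against both with TPM, were not taken. The counts at 1.5-fold and the 3 with TPM are thus not set against a background. With a pseudocount of 5 it was 1 (Trio) in each of these comparisons, as the higher pseudocount shrinks the ratio of the low gene Adam12. Under the loess correction it was 0 in each, and the cause was not tested. In GelMA against TCP it was 0 under all alternatives. Of the 30 single log2 ratios, the sign changed in 5 with TPM, 3 with totals and 7 with the loess correction, and in 0 with the other alternatives. Among those others, the pseudocounts and the filter cannot change a sign. No paired analysis was possible because each substrate has 1 library, and for the same reason no library could be left out. Over all genes, 307 were lower 2-fold against GelMA and 412 against TCP, which became 525 and 630 with a pseudocount of 0.1, 158 and 196 with a pseudocount of 5, 506 and 576 with totals, 1040 and 1052 with TPM, and 157 and 314 under the loess correction. Of the fusion genes, Boc and Adam12 had the fewest counts, at most 971 and 891.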
